A study of Mus musculus with 7 samples.

Results

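ATP-dependent chromatin remodelers were followed in newly made RNA of GFI1+ intra-aortic hematopoietic cluster (IAHC) cells. The set comprised 50 listed genes of the BAF, ISWI, CHD/NuRD and INO80/SRCAP/EP400 complexes and a few related ATPases, and all 50 were found by symbol among the 55487 genes counted. Of these, 46 passed the authors' filter, as did 10311 genes in all, and Smarcd3, Phf10, Smarca1 and Chd3 fell below it. IAHC cells (CD31+cKIT+GFI1+) were sorted from the aorta-gonad-mesonephros (AGM) region of E11.5 embryos (strain label CD1/Gf1+, carrying a Gfi1:tomato reporter in the study's methods). All cells were first held overnight in compound E (compE), a γ-secretase inhibitor that blocks Notch cleavage, and then washed. Cultures of 300 to 400 cells each followed, lasting 4 h in methylcellulose with ethynyl uridine (EU), a label taken up by new RNA. They received recombinant Fc-JAG1, a Notch ligand (2 libraries, numbered 1 and 3), compE again (2 libraries, 1 and 2) or DMSO alone, called the washout (3 libraries, 1, 2 and 3). The number is the embryo number of the labels, which the study treats as a shared biological sample. No condition was free of the overnight inhibitor, so each value describes cells released from it or kept in it.

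Remodelers use ATP to slide, eject or exchange nucleosomes. BAF (SWI/SNF) complexes open chromatin at enhancers and promoters, ISWI complexes space nucleosomes, CHD proteins include the motor of the repressive NuRD complex, and INO80, SRCAP and EP400 handle the histone variant H2A.Z. Several of these enzymes, among them BRG1 (Smarca4) and CHD4, are known to be needed in blood formation.

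Total counts ran from 21652927 to 33974693 per library, and the libraries differed far more in how many genes they caught. Of the 10311 tested genes, 90.5% and 69.9% reached 10 counts with Fc-JAG1, 71.1% and 92.4% with compE, and 56.2%, 94.2% and 68.0% in the washout, libraries being given here and below in the order of their numbers. Mitochondrially encoded genes took 1.88% and 7.35% of counts with Fc-JAG1, 7.07% and 1.24% with compE, and 12.7%, 1.14% and 2.48% in the washout. Kit and Runx1 were high in every library, but Gfi1 itself was at 0 in Fc-JAG1 3, both compE libraries and washout 1. Cdh5 had at most 3 counts in all but washout 1. Pecam1, the CD31 gene, had 11 counts in Fc-JAG1 3 and 18 in washout 1, against 1186 or more elsewhere. Ptprc, the CD45 gene, had 3 counts in washout 3 and 2183 or more elsewhere. The summed level of 7 macrophage markers was 565 and 135 CPM (counts scaled to a common library size) with Fc-JAG1, 91.7 and 406 with compE, and 416, 518 and 372 in the washout, and that of 7 erythroid markers was 107 and 81.4 CPM with Fc-JAG1, 14.8 and 86.5 with compE, and 13.8, 177 and 39.0 in the washout. The mesenchymal, neural and epithelial lists stayed at or below 15.7 CPM. The RNA was pre-amplified from few cells without molecular identifiers, so a high count can come from few molecules, and in bulk samples fewer cells of a type cannot be told apart from less RNA per cell. Whether these differences bear on the values below was not tested.

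The remodeler genes were caught more evenly than most. Among the 46 tested members, 46 and 37 had at least 10 counts with Fc-JAG1, 39 and 46 with compE, and 36, 44 and 32 in the washout. In each library this share lay above that of all tested genes, by the most in washout 1 (78.3% against 56.2%) and by the least in washout 2 (95.7% against 94.2%) and washout 3 (69.6% against 68.0%). The median count of the 50 members was 3452 and 2476 with Fc-JAG1, 1912 and 4945 with compE, and 205, 3958 and 2422 in the washout, where the tested genes had medians of 1566 and 215, 333 and 1685, and 20, 1473 and 412. Among the tested members 23 of 46 (50%) reached 10 counts in all 7 libraries, against 3035 of 10311 genes (29.4%). By complex these were 7 of 22 BAF genes, 6 of 8 ISWI genes, 6 of 11 CHD/NuRD genes, 3 of 6 INO80/SRCAP/EP400 genes and 1 of the 3 other ATPases. Srcap had the narrowest reach of the tested members, with at least 10 counts in 3 libraries.

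**Figure D1:**
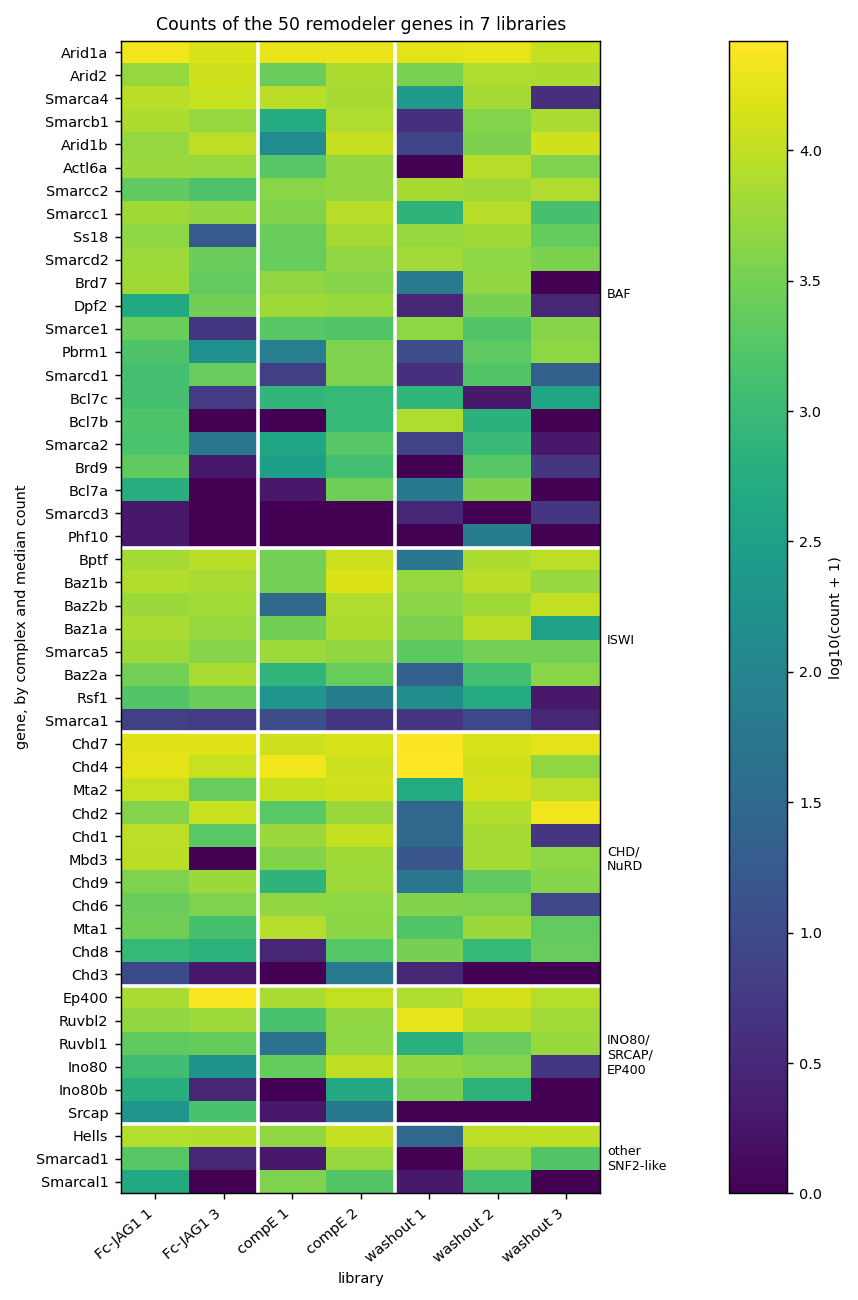
Counts of the 50 remodeler genes (rows, by complex and falling median) in the 7 libraries (columns), as log10(count + 1). Dark cells gather in Fc-JAG1 3, compE 1, washout 1 and washout 3, where 37, 40, 36 and 32 of the 50 genes had at least 10 counts.

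**Figure D2:**
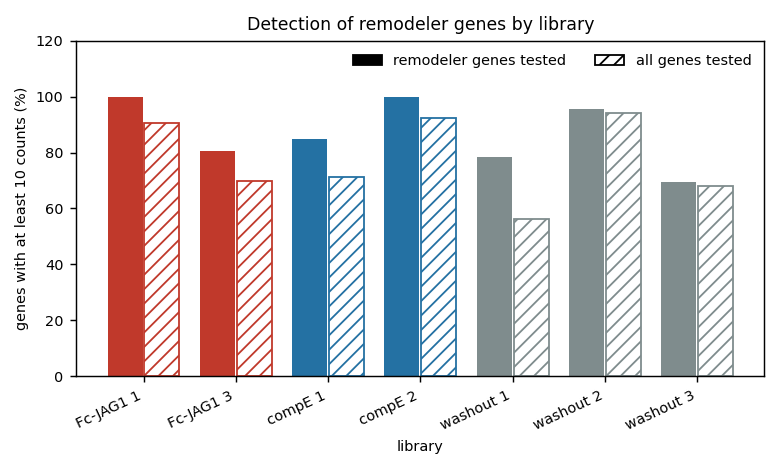
Percent of the 46 tested remodeler genes (filled bars) and of all 10311 tested genes (hatched bars) with at least 10 counts, per library; red is Fc-JAG1, blue compE and grey the washout. The filled bar is the higher one in each library, from 69.6% in washout 3 to 100% in Fc-JAG1 1 and compE 2.

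BAF complexes are built around one of 2 ATPases, and the BRG1 gene Smarca4 (ENSMUSG00000032187, chr9:21616169-21704230 on GRCm38) was the one mostly transcribed. Smarca4 had 9250 and 11170 counts with Fc-JAG1, 9075 and 6880 with compE, and 250, 6744 and 3 in the washout. Smarca2, which encodes the alternative ATPase BRM, had 1496 and 55 counts with Fc-JAG1, 411 and 1870 with compE, and 7, 966 and 1 in the washout. Per kilobase of exon and per kilobase of gene span, the level of Smarca4 was above that of Smarca2 in 7 of 7 libraries. For Smarca4 every Fc-JAG1 library lay above every washout library, while washout 2 came close to the treated libraries and washout 1 and 3 were far below. The promoter of Smarca4, from 250 bases before to 50 after the start (RefSeq, GRCm38.p6, chr9:21615919-21616218, plus strand), is shown because the gene lay among those with the smallest p values, with its 33 CpG pairs in capitals.
Smarca4: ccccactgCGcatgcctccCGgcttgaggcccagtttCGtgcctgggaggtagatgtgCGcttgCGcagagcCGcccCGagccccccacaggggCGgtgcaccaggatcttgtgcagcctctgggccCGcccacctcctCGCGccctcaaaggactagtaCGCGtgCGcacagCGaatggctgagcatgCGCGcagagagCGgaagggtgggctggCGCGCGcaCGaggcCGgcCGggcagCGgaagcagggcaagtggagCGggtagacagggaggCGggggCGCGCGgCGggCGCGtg

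The core subunits that hold the ATPase to the nucleosome differed in which libraries were high. Smarcb1 had 7587 and 5348 counts with Fc-JAG1, 525 and 7835 with compE, and 3, 3960 and 7203 in the washout. Of the scaffold pair, Smarcc1 had 6045 and 4971 counts with Fc-JAG1, 3858 and 8784 with compE, and 739, 8873 and 1339 in the washout. Smarcc2 (ENSMUSG00000025369, chr10:128459248-128490482) was highest in the washout, with 2165 and 1507 counts with Fc-JAG1, 4313 and 5029 with compE, and 6868, 6118 and 7874 in the washout. Its level was lowest with Fc-JAG1, and no libraries of Fc-JAG1 and washout overlapped, at 61.6 ± 3.11 CPM with Fc-JAG1 and 283 ± 115 CPM in the washout (SD, n = 2 and 3, scaled with TMM, the trimmed mean method of edgeR, as are all member CPM below). Among the Smarcd paralogues, which bridge the complex to transcription factors, Smarcd2 was seen in all libraries (2581 to 5995 counts with Fc-JAG1, 2453 and 4845 with compE, 3547 to 6489 in the washout), whereas Smarcd1 (chr15:99702129-99713991) had 1235 and 2443 counts with Fc-JAG1, 6 and 3671 with compE, and 3, 1688 and 22 in the washout. The neural and muscle paralogue Smarcd3 had at most 4 counts anywhere. Smarcd2 exceeded both per kilobase of exon in 7 of 7 libraries. Smarce1, a DNA-binding subunit, had 2594 and 4 counts with Fc-JAG1, 1835 and 1689 with compE, and 4667, 1661 and 4188 in the washout.

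Among the subunits that tell the BAF types apart, Arid1a was even and most others were at or near 0 in 1 or more libraries. Arid1a, of canonical BAF, was the steadiest of the 46, with 21126 and 14560 counts with Fc-JAG1, 18544 and 19242 with compE, and 17181, 17932 and 10648 in the washout. Its alternative partner Arid1b had 5255 and 9579 counts with Fc-JAG1, 134 and 10944 with compE, and 7, 3529 and 12416 in the washout, so that washout 3 held the highest value and washout 1 the lowest. Dpf2, a canonical BAF reader of histone tails, had 492 and 3038 counts with Fc-JAG1, 6257 and 5554 with compE, and 2, 3256 and 2 in the washout. Its Fc-JAG1 and washout values overlapped only through washout 2, and both compE values lay above the washout. Arid2 and Pbrm1 mark PBAF, and neither set the conditions apart. Arid2 stood at 5324 and 12620 counts with Fc-JAG1, 2615 and 7632 with compE, and 3369, 7777 and 7645 in the washout, and Pbrm1 ranged from 10 to 4748 counts. Brd7, the PBAF bromodomain subunit, had 6236 and 2306 counts with Fc-JAG1, 4857 and 4072 with compE, and 62, 4873 and 0 in the washout. The low values of Brd7 were thus washout 1 and 3, the same libraries as for Dpf2. Phf10, also of PBAF, had 75 counts in washout 2 and at most 1 elsewhere. Brd9, of non-canonical BAF, had 2179 and 1 counts with Fc-JAG1, 313 and 1228 with compE, and 0, 1878 and 4 in the washout. The small subunit genes Bcl7a, Bcl7b and Bcl7c each had under 10 counts in 2 or 3 libraries, while Ss18 had 17 or more in every library and Actl6a was at 0 in washout 1 alone.

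Of the ISWI genes, the ATPase Smarca5 (SNF2H, ENSMUSG00000031715, chr8:80698507-80739497, minus strand) was even across libraries and its paralogue Smarca1 (SNF2L) was hardly seen, at 6 and 5 counts with Fc-JAG1, 10 and 4 with compE, and 4, 8 and 2 in the washout. Smarca5 had 6216 and 4074 counts with Fc-JAG1, 6010 and 4845 with compE, and 2031, 3168 and 3162 in the washout. In normalized terms this was 172 ± 1.37 CPM with Fc-JAG1, 181 ± 79.6 CPM with compE and 106 ± 16.1 CPM in the washout (SD, n = 2, 2 and 3), and neither treated group overlapped the washout. Its promoter, from a CpG-rich start (chr8:80739410-80739709, minus strand, RefSeq GRCm38.p6), is shown as that of the steadiest ATPase, with 32 CpG pairs in capitals.
Smarca5: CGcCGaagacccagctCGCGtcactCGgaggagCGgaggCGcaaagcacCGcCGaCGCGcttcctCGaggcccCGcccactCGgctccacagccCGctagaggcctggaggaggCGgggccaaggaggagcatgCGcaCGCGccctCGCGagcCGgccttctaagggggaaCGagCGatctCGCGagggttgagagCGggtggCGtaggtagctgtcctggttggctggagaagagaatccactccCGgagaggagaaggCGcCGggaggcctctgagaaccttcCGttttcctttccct

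The partners of SNF2H split into steady and uneven genes. Baz1b, the WSTF subunit, had 8068 and 7228 counts with Fc-JAG1, 3175 and 15381 with compE, and 5166, 9231 and 5371 in the washout. Baz1a (ACF1) had 7294 and 5179 counts with Fc-JAG1, 3065 and 7511 with compE, and 3506, 9263 and 358 in the washout. Neither gene separated the conditions. Bptf, the large subunit of NURF, had 6721 and 9007 counts with Fc-JAG1, 3094 and 11521 with compE, and 56, 7440 and 9476 in the washout, and Baz2a and Baz2b were lowest in washout 1 (22 counts) and compE 1 (33 counts). Rsf1 (ENSMUSG00000035623, chr7:97579889-97692778), the partner of SNF2H in the RSF complex, stood apart. It had 1732 and 2635 counts with Fc-JAG1, 208 and 73 with compE, and 160, 516 and 1 in the washout, so that both Fc-JAG1 libraries were above all 5 others. The gene overlaps Rsf1os2, whose reads cannot be told apart from its own where the counting ignored strand, and the strand setting was not given in the sources used here.

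Of the CHD enzymes, Chd4, the NuRD motor, and Chd7, mutated in CHARGE syndrome in humans, were among the members with the least spread. Chd4 had 17175 and 11259 counts with Fc-JAG1, 21382 and 12262 with compE, and 26297, 12839 and 4814 in the washout. Chd7 had 16353 and 16551 counts with Fc-JAG1, 12848 and 14195 with compE, and 24493, 13928 and 17484 in the washout. Neither separated the conditions. The NuRD paralogue Chd3 had 9 and 1 counts with Fc-JAG1, 0 and 68 with compE, and 2, 0 and 0 in the washout, and per kilobase of exon Chd4 lay above it in 7 of 7 libraries. Chd1 (chr17:15704967-15772610), which reads H3K4 methylation, had 9711 and 1939 counts with Fc-JAG1, 5598 and 10694 with compE, and 33, 6578 and 4 in the washout. Chd2 was spread the other way, with 3951 and 11040 counts with Fc-JAG1, 1924 and 5736 with compE, and 28, 8118 and 21345 in the washout. For Chd1 washout 1 and 3 were the low libraries, and for Chd2 washout 1 alone. Chd6 was low in washout 3, with 2576 and 3623 counts with Fc-JAG1, 5120 and 4749 with compE, and 3799, 3716 and 8 in the washout. Chd8, which binds β-catenin, was low in compE 1, with 898 and 733 counts with Fc-JAG1, 2 and 1814 with compE, and 3297, 925 and 2450 in the washout. Chd9 had 3735 and 5633 counts with Fc-JAG1, 751 and 5960 with compE, and 54, 2190 and 4127 in the washout. The NuRD subunits Mta1 and Mta2 were seen in every library. Mta1 had 2898 and 1364 counts with Fc-JAG1, 8425 and 4472 with compE, and 1668, 5581 and 2261 in the washout. Mta2 had 11167 and 2508 counts with Fc-JAG1, 10668 and 12500 with compE, and 512, 13847 and 9510 in the washout. Less even was Mbd3, the methyl-CpG-binding domain subunit, with 9220 and 0 counts with Fc-JAG1, 3891 and 6194 with compE, and 14, 6748 and 4575 in the washout.

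Srcap (ENSMUSG00000053877, chr7:127511983-127561219), the ATPase that deposits H2A.Z, had the largest edgeR fold change of the 46 members with Fc-JAG1. It had 197 and 1426 counts with Fc-JAG1, 1 and 61 with compE, and 0, 0 and 0 in the washout. Against a floor of 3 counts per washout library the Fc-JAG1 mean was at least 271-fold higher, at least 44.5-fold for Fc-JAG1 1 and at least 498-fold for Fc-JAG1 3 taken alone. Srcap passed the filter only through the Fc-JAG1 libraries, so that its being tested at all required it to be high there. Its level was at most 60.4 CPM, and it overlaps Gm28198. The promoter of Srcap (chr7:127511733-127512032, plus strand, RefSeq GRCm38.p6) is shown for this contrast and holds 16 CpG pairs, in capitals, fewer than the 2 promoters above.
Srcap: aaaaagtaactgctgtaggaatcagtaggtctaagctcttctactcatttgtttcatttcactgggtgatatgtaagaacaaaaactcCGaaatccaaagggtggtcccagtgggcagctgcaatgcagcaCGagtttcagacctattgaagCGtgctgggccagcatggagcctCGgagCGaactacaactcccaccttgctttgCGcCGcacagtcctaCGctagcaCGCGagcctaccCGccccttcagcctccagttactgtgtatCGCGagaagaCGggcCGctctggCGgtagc

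The other members of this group did not follow Srcap. Ep400, whose protein exchanges histones within the TIP60 complex, had 7097 and 22741 counts with Fc-JAG1, 7330 and 10258 with compE, and 7759, 13561 and 8634 in the washout. Ino80 had 1174 and 195 counts with Fc-JAG1, 2334 and 9733 with compE, and 5029, 3956 and 4 in the washout. For both genes the Fc-JAG1 and washout ranges overlapped. The AAA+ ATPase genes shared by INO80, SRCAP and EP400 were seen throughout, and Ruvbl1 had 2223 and 2382 counts with Fc-JAG1, 46 and 4694 with compE, and 626, 2532 and 5436 in the washout. Ruvbl2 had 4843 and 5879 counts with Fc-JAG1, 1428 and 4861 with compE, and 18165, 9187 and 6456 in the washout, with both compE libraries below all 3 of them. Ino80b had 579 and 2 counts with Fc-JAG1, 0 and 456 with compE, and 3306, 719 and 0 in the washout. Hells, an SNF2-like enzyme needed for DNA methylation at repeats, had 8441 and 8125 counts with Fc-JAG1, 4856 and 10721 with compE, and 28, 9590 and 9909 in the washout. Smarcad1 was at 1878 and 2 counts with Fc-JAG1, 1 and 5441 with compE, and 0, 5500 and 1751 in the washout, and Smarcal1, a fork-restart enzyme, at 488 and 0, 3694 and 1750, and 1, 1177 and 0.

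Ranked by the SD of log2 CPM over all 7 libraries, the steadiest members were Arid1a (0.45), Smarca5 (0.48), Baz1b (0.54), Smarcd2 (0.65), Chd7 (0.67), Ep400 (0.74), Arid2 (0.74), Mta1 (0.83) and Chd4 (1.02). The highest library was 2.63 times the lowest for Arid1a, 4.94 times for Ep400 and 8.90 times for Chd4. At the other end, Bcl7b had an SD of 5.37. Arid1a averaged 598 ± 26.0 CPM with Fc-JAG1, 615 ± 167 CPM with compE and 625 ± 328 CPM in the washout (SD, n = 2, 2 and 3), and Chd7 575 ± 178, 437 ± 100.2 and 810 ± 543 CPM in the same order, so that neither gene set the conditions apart.

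**Figure D3:**
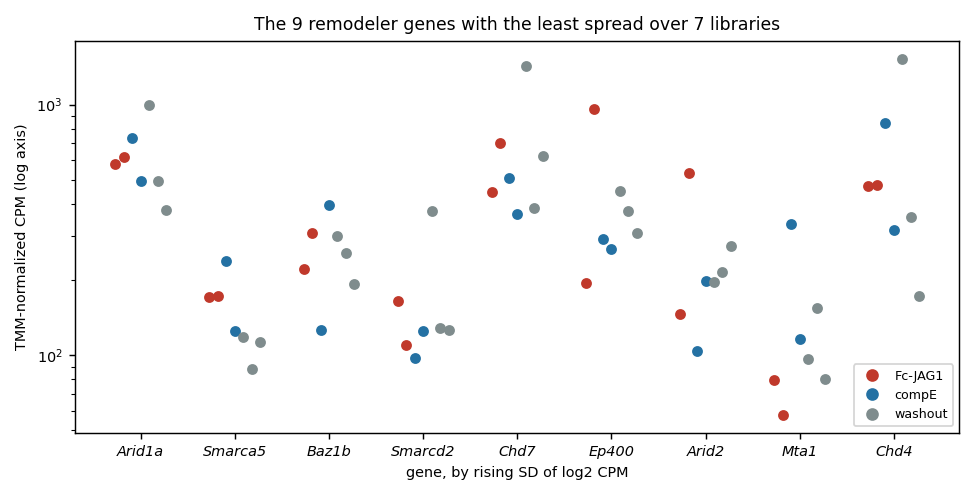
TMM-normalized CPM (log axis) of the 9 members with the least spread; each point is a library, red Fc-JAG1, blue compE, grey the washout. The points of the conditions mix for Arid1a, Chd7 and Chd4, and both Smarca5 treated groups lie above the washout points.

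The effect of Fc-JAG1 was then compared with the washout across all genes. The edgeR quasi-likelihood test with embryo number and condition called 0% of the 10311 genes and none of the 46 members at an adjusted p of 0.05, although 526 genes and 2 members were below 0.05 unadjusted. DESeq2, which the study used and which was run here on the same terms, called 10 members higher with Fc-JAG1 (21.7% of 46, against 15.7% of all tested genes) and 1 lower, Smarcc2 (2.17% against 4.74%). The members it called higher were Srcap, Smarcd1, Smarca4, Chd1, Brd7, Dpf2, Smarca2, Arid1b, Rsf1 and Smarcad1. They were 6 of 20 tested BAF genes, 1 of 7 ISWI, 1 of 10 CHD/NuRD, 1 of 6 INO80/SRCAP/EP400 and 1 of 3 other SNF2-like genes. Across the complexes, 5 of 16 tested ATPase genes were among them. Whether any complex exceeded the 15.7% of all genes was not tested. Both tools gave positive folds for these 10. By edgeR, Srcap had a log2 fold change of 14.51 (SE 6.48, adjusted p = 0.828), a fitted value that depends on the prior count because the washout is at 0. As it passed the filter only through Fc-JAG1, a difference was built into its being tested. Smarcd1 stood at 7.38 (SE 3.51, adjusted p = 0.828), Chd1 at 5.59 (SE 2.82), Smarca4 at 5.56 (SE 2.80) and Arid1b at 3.69 (SE 2.38, adjusted p = 0.855) in the same edgeR fit. DESeq2 gave adjusted p values of 7.9e-05 for Srcap, 0.000334 for Smarcd1, 0.000904 for Smarca4, 0.0009 for Chd1, 0.00308 for Brd7 and 0.00685 for Dpf2, and of 0.0247 to 0.0394 for the others.

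The size of these differences varied with the washout library. Of the 10 members called higher, 6 had under 10 counts in washout 1, 7 in washout 3 and 1, Srcap, in washout 2. The median difference on the log2 CPM scale was 6.38 for Fc-JAG1 1 over washout 1 and 7.62 over washout 3, but 0.49 over washout 2. For Fc-JAG1 3 it was 5.20, 9.20 and 0.83 in the same order. No Fc-JAG1 library shared its number with washout 2. With the embryo term, washout 2 therefore entered the Fc-JAG1 contrast only through compE 2, while washout 1 and 3 were compared directly. Of the 11 DESeq2 calls, 2 kept call and direction without washout 3, 2 without Fc-JAG1 3, 4 without Fc-JAG1 1, 5 without washout 1, 6 without washout 2, 6 without compE 2 and 8 without compE 1. Other members were called in some of these fits: Chd6 higher without Fc-JAG1 1, Mbd3 lower without Fc-JAG1 1 or washout 1, and Smarce1 lower without Fc-JAG1 1, compE 1 or washout 1. Without washout 1 the members called lower were 2 of 46, against 706 of 10311 genes. The fits without Fc-JAG1 1 or 3 left 1 Fc-JAG1 library, so a call there needed 10 counts in 2 washout libraries. A gene low in the washout could not be called higher in those fits, as for Srcap, Dpf2 and Smarca2. By gene, DESeq2 called Srcap in each fit that left out a library and kept both Fc-JAG1 libraries. Srcap was tested only because it was high with Fc-JAG1, and it had 0 counts in every washout library. That it stayed called in this or any other fit is therefore no separate support. The log2 fold change of Srcap ran from 9.97 to 13.87 over all 7 fits without a library. Among the fits with both Fc-JAG1 libraries, Smarca4, Brd7 and Smarcd1 were lost only without washout 3. Embryo 3 gave only Fc-JAG1 3 and washout 3, so without washout 3 the embryo term left Fc-JAG1 3 no part in the contrast. That fit and the one without Fc-JAG1 3 were nearly the same, with all-gene edgeR medians of 0.83 and 0.82, and are not separate checks. Chd1 was lost without washout 1 or 3, and Smarcc2 in every fit. Arid1b fell to a log2 fold change of −0.12 without Fc-JAG1 1 by edgeR. Smarcad1, whose counts are lower in Fc-JAG1 3 than in washout 2 and 3, had DESeq2 log2 fold changes from −9.55 without Fc-JAG1 1, where it was called lower, to 10.89 without Fc-JAG1 3, where it was called higher. With no replicate block, that is no term for embryo number, its value was −1.57 and DESeq2 called Srcap alone.

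**Figure D4:**
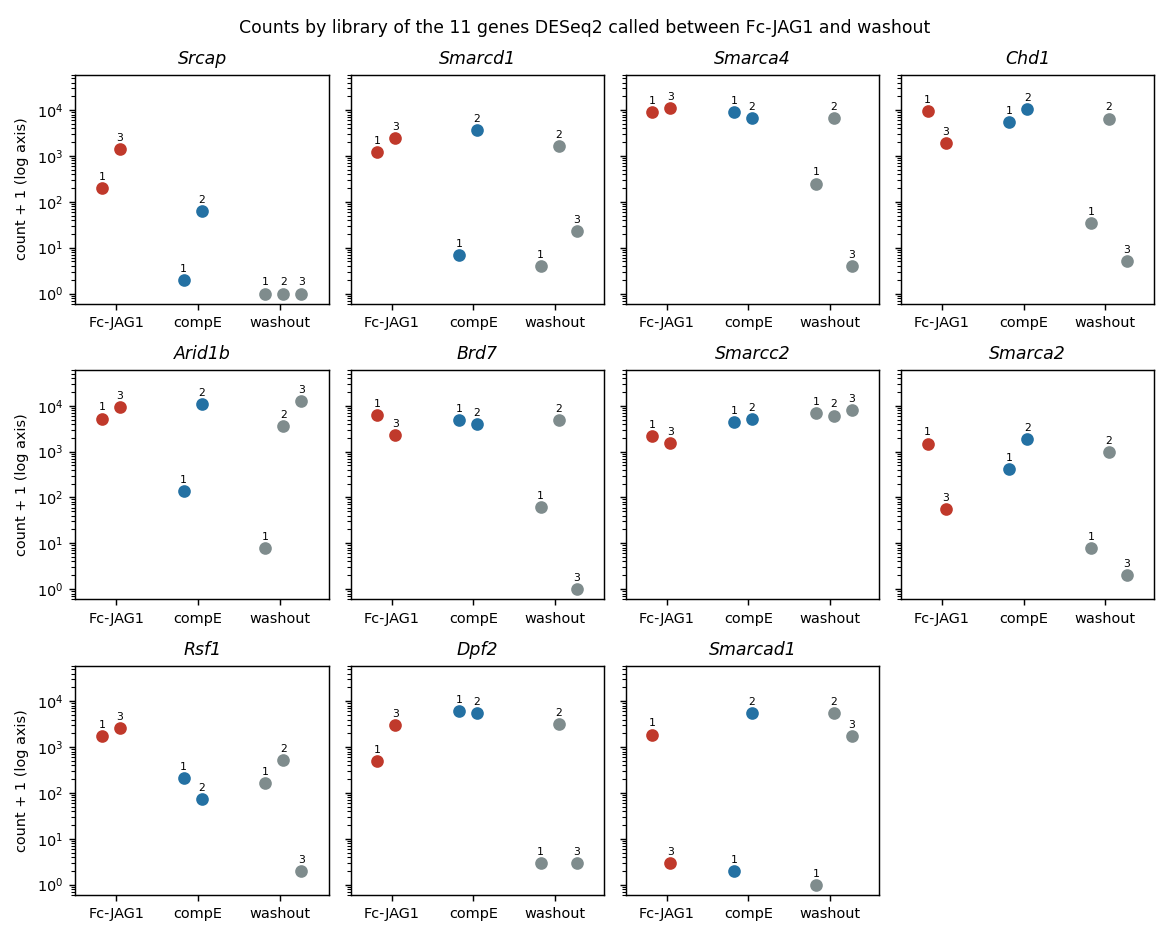
Counts plus 1 on a log axis for the 11 members DESeq2 called between Fc-JAG1 and washout, by condition, with the embryo number beside each point. Srcap is at 0 in all 3 washout libraries, and for Smarca4, Chd1, Brd7 and Dpf2 washout 2 lies near the treated libraries while washout 1 and 3 lie far below.

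The shares of members whose groups did not overlap were near those of all genes. Every Fc-JAG1 library was above every washout library for 4 of the 46 members (Rsf1, Srcap, Smarca5 and Smarca4), 8.70% against 10.5% of all tested genes. Of these, Srcap passed the filter only through Fc-JAG1. Every Fc-JAG1 library was below for 2 (Smarcc2 and Mta1), 4.35% against 6.85%. Smarca5 had a log2 fold change of 0.50 (SE 1.91) in edgeR, beside a median of 0.44 over all genes, and Mta1 −0.71 (SE 2.10). The median log2 fold change of the 46 members was 0.70 with edgeR, and 26 of 46 lay above the all-gene median. The all-gene median moved with the scaling, as all genes stood at 0.44 with TMM, 0.07 with the DESeq2 size factors and 0.71 with total counts, and the members at 0.70, 0.39 and 0.97. By complex the members' medians were 1.85 for BAF, 1.81 for ISWI, −0.04 for CHD/NuRD and −0.16 for INO80/SRCAP/EP400.

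Continued γ-secretase inhibition was compared with the same 3 washout libraries. The edgeR test called 0% of genes, with 271 genes and none of the members below 0.05 unadjusted. DESeq2 called 2 members higher with compE, Dpf2 and Chd1 (4.35% of 46, against 5.66% of all genes), and none lower (3.67% of all genes), with adjusted p values of 0.00268 and 0.0443. In edgeR Dpf2 had a log2 fold change of 5.91 (SE 3.47), Chd1 3.91 (SE 2.52), Smarca4 3.46 (SE 2.16), Brd7 3.48 (SE 2.95) and Ruvbl2 −2.42 (SE 1.63), all with an adjusted p of 1.00. DESeq2 called Dpf2 in 1 of the 7 fits without a library, that without washout 2, and Chd1 in none. It called none of the members without Fc-JAG1 1, Fc-JAG1 3, compE 1, washout 1 or washout 3. Without compE 2 it called others, all lower (Baz2b, Bcl7b, Chd8 and Ino80b), and without washout 2 Baz2b and Chd8 lower beside Dpf2 higher. In both fits many genes outside the set were called lower as well, so these calls were not particular to the members. The fits without compE 1 or 2 left 1 compE library, so a call there needed 10 counts in 2 washout libraries. A gene low in the washout, such as Dpf2, could not be called higher in those fits. Embryo 2 gave only compE 2 and washout 2, so without washout 2 the embryo term left compE 2 no part in the contrast. The fits without washout 2 and without compE 2 were nearly the same, both with an all-gene edgeR median of −0.26, and are not separate checks. The edgeR fold changes of Smarca4 and Brd7 turned to −0.09 and −0.38 without compE 1. Both compE libraries were above all washout libraries for Smarcal1, Srcap, Smarca5, Chd1 and Dpf2 (10.9% of members and 10.9% of genes). Of these, Smarcal1 passed the filter only through compE, and Srcap was at the floor, with 1 count in compE 1 against 0 in each washout library. Both compE libraries were below for Ep400, Ruvbl2 and Smarcd2 (6.52% against 6.79%). The members' median log2 fold change was 0.29, against −0.10 over all genes.

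**Figure D5:**
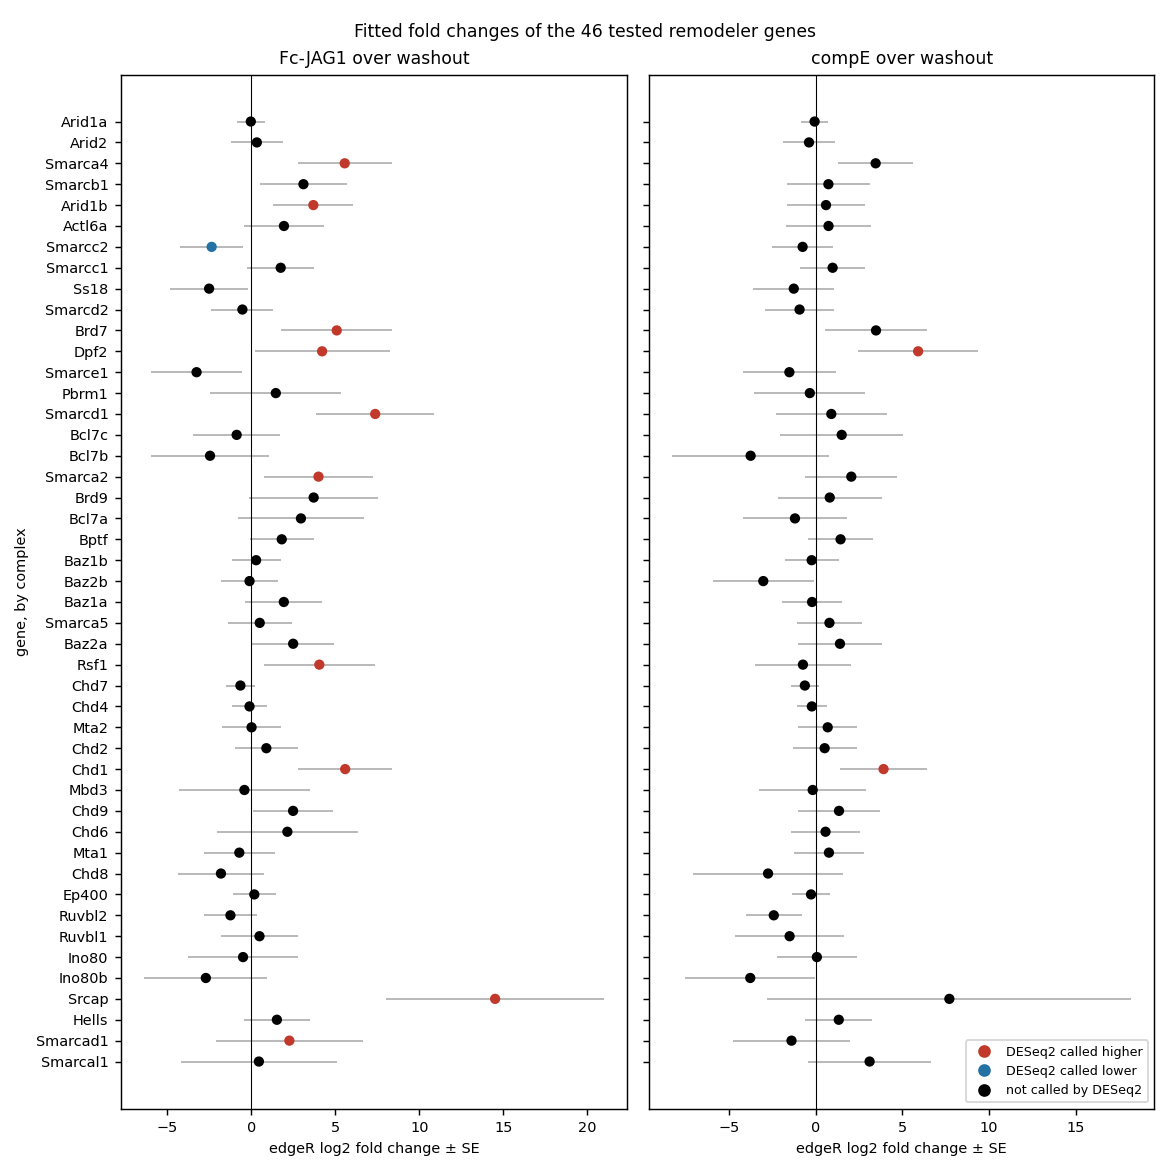
Log2 fold changes from edgeR with SE for the 46 tested members, Fc-JAG1 over washout on the left and compE over washout on the right, which share the washout libraries. Red marks genes DESeq2 called higher and blue lower; the bars are wide, and Srcap (14.51) lies furthest right on the left panel.

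Set directly against compE, Fc-JAG1 gave 1 member called by DESeq2, Smarcd1 (2.17% of members, against 9.18% of genes higher and 2.21% lower), with an adjusted p of 0.0106. By edgeR, which called 0% of genes (292 genes and none of the members below 0.05 unadjusted), Smarcd1 had a log2 fold change of 6.48 (SE 4.02), Rsf1 4.79 (SE 3.52) and Arid1b 3.10 (SE 2.59), with adjusted p values of 1.00. The low compE library for Smarcd1 was compE 1, with 6 counts against 3671 in compE 2, and the call was kept in 1 of 7 fits without a library. DESeq2 called other members without Fc-JAG1 1 (Rsf1, Chd6 and Smarca4 higher, Mbd3 lower) and without compE 2 or washout 2 (Chd8 higher). Many genes outside the set were called in those fits too. Without Fc-JAG1 3, compE 1 or washout 3 none of the members was called. Without Fc-JAG1 1 or 3 only 1 Fc-JAG1 library was left, and a call needed 10 counts in both compE libraries, which Smarcd1 lacked. The fold change of Arid1b turned to −2.07 without Fc-JAG1 1. Through the embryo term, the fits without compE 2 and without washout 2 again nearly coincided, both with an all-gene edgeR median of 0.57. Those without Fc-JAG1 3 and without washout 3 did too, at 0.42 and 0.43. The members' median was 1.01, beside 0.43 over all genes.

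Of 53 further genes listed from general knowledge, which were subunits of these complexes and other SNF2-like enzymes, 48 were tested. With Fc-JAG1 over washout DESeq2 called 9 higher (18.8% of 48, against 15.7% of all genes) and 2 lower (4.17% against 4.74%). With compE it called 3 higher (6.25% against 5.66%) and 1 lower (2.08% against 3.67%), and with Fc-JAG1 over compE 4 higher (8.33% against 9.18%) and none lower (2.21% of all genes). These shares were near the background, and edgeR called none. Ercc6, the SNF2-like repair enzyme of Cockayne syndrome in humans, had 3856 and 5995 counts with Fc-JAG1, 1 and 1933 with compE, and 0, 1971 and 0 in the washout, and an edgeR log2 fold change of 13.10 (SE 5.23, adjusted p = 0.828). It passed the filter only through the Fc-JAG1 libraries, where it is high, so a difference was built into its being tested. Actb, an actin subunit of BAF and INO80 complexes and a cytoskeletal gene, had 72393 and 16342 counts with Fc-JAG1, 30470 and 43158 with compE, and 45283, 79750 and 62669 in the washout. Its log2 fold change was −0.97 (SE 0.35) with Fc-JAG1, called lower by DESeq2 (adjusted p = 0.0360), and −1.24 (SE 0.36, edgeR adjusted p = 1.00) with compE. Dpf3, the paralogue of Dpf2, stood at 2.73 (SE 1.62, edgeR adjusted p = 1.00) with compE.

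The promoters of the members were read for what they share. RefSeq promoters were found for 40 of the 50 members, 45 windows of 300 bases in all. They held a median of 29 CpG pairs, against 7 over 32851 mouse promoters, and 1 to 62 among themselves. The core word TGGGAA, bound by the Notch effector RBPJ, was searched on both strands and stood in 4 of the 45 windows (8.89%), against 25.6% of all promoters of that length. The word TATAAA stood in 4 (8.89%), against 13.6%. The members' windows were not matched to all promoters in CpG content, and whether this bears on either share was not tested. The 4 windows with the RBPJ word, from Actl6a, Chd8, Chd9 and Smarcal1, are shown as 30 bases around it with the word in capitals, which reads TTCCCA where it lies on the opposite strand. They lie at chr3:32708296-32708325 (Actl6a), chr14:52257883-52257912 (Chd8, minus strand), chr8:90828716-90828745 (Chd9) and chr1:72583231-72583260 (Smarcal1).
Actl6a: caagcctcttaaTTCCCAgtacctaattaa
Chd8: gcctacgtacccTTCCCAgcctcaggccct
Chd9: aagccaccagcgTGGGAAggcccagctgca
Smarcal1: cgtactggctgtTGGGAAatgtagttcgac
None of these 4 genes was called by the main DESeq2 fit of all 7 libraries in any comparison. Chd8 was called in some fits that left out a library. Srcap, Smarca4 and Smarca5 have no such word in the windows shown.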

How the data were processed

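By the study's methods and the labels, reads (50 bp, single end) of EU-captured RNA were trimmed with cutadapt 4.2, aligned to GRCm38 with STAR 2.7.8, kept where uniquely mapped and assigned to genes of Ensembl release 102 with featureCounts (Subread 2.0.1), with the gene as feature. The counts as deposited by the authors are raw whole numbers. The filtered table keeps 10311 genes that reach 10 counts in 2 or more libraries of 1 condition, and matched the raw table in every value. The deposited log2-like transformed table was not used. The amounts of compE and Fc-JAG1 differ in unit between the labels and the methods and are not given.

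Counts were tested with edgeR 4.0.16 (quasi-likelihood, TMM, terms for embryo number and condition, all 7 libraries) in R 4.3.3, with Benjamini-Hochberg adjustment over all genes. DESeq2 1.42.0 was the second tool, and its calls needed an adjusted p below 0.05 plus 10 counts in 2 libraries of either condition. Libraries were compared by their labels' numbers as pairs, as in the study. Same-numbered deviations from the condition means correlated at −0.0854 to 0.0915 over 5 pairs. P-values measure the spread between these libraries only.

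Gene positions came from GENCODE M21 on GRCm38, promoters from RefSeq GRCm38.p6. The members and lists were chosen with earlier results of these data known. Full statistics went to the 5 members with the smallest edgeR p in each comparison with the washout and the 3 in Fc-JAG1 over compE, and counts to those, the DESeq2 calls, the ATPases and members seen in all libraries. Alternatives (204 pairs of a result and a setting) covered size factors, filters, limma 3.58.1 voom, no replicate block and leaving out each library, and 8 were added after the data were seen. The scripts were tested on simulated data.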

Additional observations from a re-analysis of the deposited data

How the results depend on the processing

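With edgeR none of the alternatives called a member, apart from the second tool, which gave 11 members with Fc-JAG1, 2 with compE and 1 for Fc-JAG1 over compE, and 2108, 962 and 1175 genes. limma voom called 1 gene in each comparison. With no replicate block edgeR called 1 gene with Fc-JAG1. DESeq2 then called 1, 0 and 0 members and 388, 325 and 190 genes in the 3 comparisons. Most DESeq2 calls were thus made only with the paired terms, under which washout 2 entered the Fc-JAG1 contrast only through compE 2. With no block and without washout 1 and 3, an alternative chosen after seeing the data, edgeR called 6 genes with Fc-JAG1 and 6 with compE, and DESeq2 1 member and 1 member, 109 and 112 genes. TMM factors in DESeq2 gave 2 members for Fc-JAG1 over compE. Leaving out each library in turn, DESeq2 called 2 to 9 members and 697 to 1951 genes with Fc-JAG1, 0 to 4 and 23 to 1255 with compE, and 0 to 4 and 90 to 1071 for Fc-JAG1 over compE. The edgeR fold change of Arid1b then ran from −0.12 to 7.02 with Fc-JAG1 and from −2.07 to 5.06 over compE, and with compE that of Smarca4 ran from −0.095 to 5.52 and that of Brd7 from −0.38 to 6.46. The other edgeR fold changes of named members kept their sign, with 144 pairs of a named member and a setting on the same side of the threshold and 8 past it with DESeq2 only. The members' median stayed above 0 with Fc-JAG1 (0.07 to 1.13) and over compE (0.25 to 1.32), but with compE it ran from −0.012 to 0.72 and was below 0 in 4 settings, the one with no replicate block (−0.011) among them. The median of all genes changed sign in each comparison, and with no block stood at −0.16 with Fc-JAG1. The cause of these shifts was not tested.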
